A study of Homo sapiens with 3 samples.

Results

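The genes of MHC class II antigen presentation were examined in CAL27 cells, an established human oral squamous cell carcinoma (OSCC) line, and in 2 drug-resistant derivatives of it. The 10 genes, of 19220 in the count table, were HLA-DRA, HLA-DRB1, HLA-DRB5, HLA-DPA1, HLA-DPB1, HLA-DQB1, HLA-DMA, HLA-DMB, CD74 and CIITA. They were chosen by name, and partly because HLA-DRA moved in opposite directions in the 2 resistant lines, so the ratios below describe the genes and test nothing. RNA-seq values of 1 library per line were used: parental CAL27 cells in drug-free medium (genotype label WT), CAL27/5FU cells labelled 5-fluorouracil resistant and kept in 10 μM 5FU, and CAL27/OXA cells labelled oxaliplatin resistant and kept in 10 μM OXA. The study derived its 5FU-resistant cells by long culture in rising doses of 5FU, and whether each resistant line is a clone or a mixed population was not stated in the sources used here. Each resistant line was sequenced with its drug present, so resistance and ongoing exposure cannot be told apart. The libraries held between 37297713 and 43455488 counts. With 1 library per line used here there was no replicate check and no p-value, and every interval below covers counting error only.

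MHC class II molecules are surface proteins made of an α and a β chain that present peptides from endosomes to CD4+ T cells. DR, DP and DQ are the presenting isotypes, CD74 (the invariant chain) fills their groove and guides them to endosomes, and DM exchanges the remaining CD74 fragment for other peptides. CIITA, a coactivator that does not itself bind DNA, switches these genes on together by docking on the RFX complex, CREB1 and NF-Y, which sit on the X and Y boxes of class II promoters. Dendritic cells, macrophages and B cells make class II constantly, whereas epithelial cells and carcinomas mostly make it after interferon-γ, which acts on a promoter of CIITA.

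The X and Y boxes are shown first because they are the sequence feature that class II genes share. The windows below come from the promoter table of RefSeq (GRCh38.p14), which matched 8 of the 10 genes with 9 promoters, and all 6 lie on the minus strand. HLA-DRA and CIITA had no promoter there, so their promoters were not searched. The search covered 250 bases upstream of each start on both strands. Capitals mark CNAGNNAC, the core of the X box, and ATTGG, the Y box, or CCAAT where the Y box reads on the other strand.
HLA-DRB1, chr6:32589875-32589944: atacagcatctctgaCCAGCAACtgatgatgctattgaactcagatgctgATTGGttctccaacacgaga
HLA-DRB5, chr6:32530358-32530427: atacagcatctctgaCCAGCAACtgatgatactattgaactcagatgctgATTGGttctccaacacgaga
HLA-DQB1, chr6:32666726-32666795: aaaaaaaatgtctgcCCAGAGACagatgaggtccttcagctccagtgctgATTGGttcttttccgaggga
HLA-DMA, chr6:32953157-32953227: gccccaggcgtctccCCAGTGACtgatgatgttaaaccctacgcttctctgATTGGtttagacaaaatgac
CD74, chr5:150412944-150413008: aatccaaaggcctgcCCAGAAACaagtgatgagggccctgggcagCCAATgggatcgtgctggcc
HLA-DMB, chr6:32941031-32941133: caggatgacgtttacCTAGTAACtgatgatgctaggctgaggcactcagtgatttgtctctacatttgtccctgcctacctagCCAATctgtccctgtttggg

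The windows of HLA-DRB1 and HLA-DRB5 differed at 1 of 70 bases. In HLA-DRB1, HLA-DRB5 and HLA-DQB1 the boxes stood 27 bases apart, and in HLA-DMA 28 bases apart. In CD74 the gap was 22 bases and in HLA-DMB 60 bases, both with the Y box reversed. ATTGG on either strand was found in 7 of the 9 promoters and in 32.0% of 35116 RefSeq promoters, and CNAGNNAC in 7 of 9 and in 33.2%. An X core followed by ATTGG on the same strand after 10 to 40 bases was found in 4 of 9, against 1.02% of all promoters. The shorter core was chosen after these sequences had been read. With the first choice, CCNAGNNAC, which holds 1 more base, the core was in 5 of 9 promoters (13.7% of all) and the ordered pair in 2 of 9 (0.376% of all). Of the DP genes, the HLA-DPB1 promoter held ATTGG and no X core, the second HLA-DPA1 promoter an X core and no ATTGG, and the first HLA-DPA1 promoter neither. CACGTG, the E box, was found in 0 of the 9 and occurs in 6.34% of all promoters. This site was sought for CIITA, whose promoter is not among the 9, so nothing is read from it. A match or its lack describes these letters in this window, not binding.

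Transcripts of class II genes were higher in the CAL27/5FU library and lower in the CAL27/OXA library than in the CAL27 library. HLA-DRA, the α chain of DR, had 750 counts in parental cells, 2444 in CAL27/5FU and 102 in CAL27/OXA cells. As CPM, counts scaled by TMM to a common library size, these were 19.3, 62.4 and 2.30, so that CAL27/5FU stood highest and CAL27/OXA lowest with no overlap of the counting intervals. The ratio was 3.24-fold higher in CAL27/5FU and 8.38-fold lower in CAL27/OXA, each against CAL27. The log2 ratios, which add a prior count of 2, were 1.69 (95% interval of the counts 1.58 to 1.82) and -3.04 (-3.38 to -2.77). The 2 resistant lines thus differed by 27.2-fold in HLA-DRA.

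**Figure D1:**
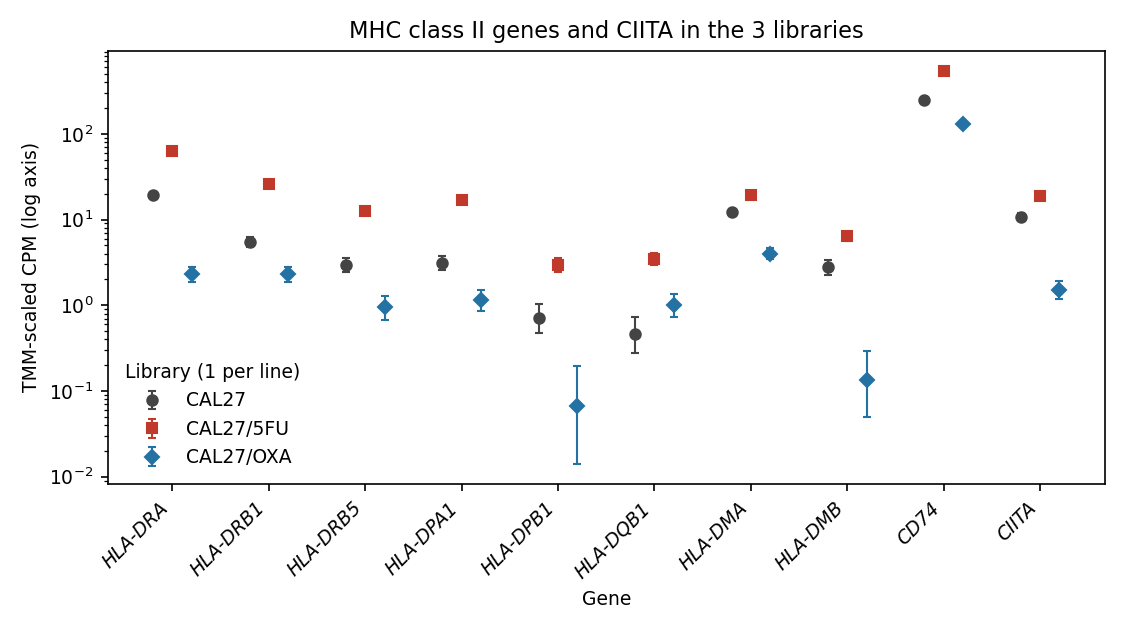
TMM-scaled CPM on a log axis for the 10 genes in the 3 libraries (circles CAL27, squares CAL27/5FU, diamonds CAL27/OXA), with exact 95% Poisson intervals of the counts as bars. CAL27/5FU is the highest library for every gene, and CAL27/OXA the lowest for all but HLA-DQB1.

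Of the 10 genes, 8 were more than 2-fold higher in CAL27/5FU than in CAL27 and 0 were more than 2-fold lower, with a median log2 ratio of 1.83. Of the 13676 genes whose mean count reached 10, 8.46% were more than 2-fold higher, 6.72% were more than 2-fold lower and the median was near 0. In CAL27/OXA against CAL27, 8 of the 10 were more than 2-fold lower and 1 was more than 2-fold higher, with a median of -1.59, beside a background of 9.28% lower and 6.54% higher. On FPKM with a pseudocount of 1, HLA-DRB1, HLA-DRB5, HLA-DPA1 and HLA-DPB1 came inside 2-fold in CAL27/OXA, and HLA-DPB1 in CAL27/5FU as well. Between the resistant lines, all 10 were more than 2-fold lower in CAL27/OXA than in CAL27/5FU (median -3.63), where the background was 8.38% lower and 4.18% higher. On FPKM with a pseudocount of 1 that count was 8, without HLA-DPB1 (-0.79) and HLA-DQB1 (-0.98). All 10 genes passed the filter on the mean count. Because HLA-DRA's opposite moves helped to choose the set, nothing is read from these shares.

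The comparisons of CAL27/5FU and CAL27/OXA with CAL27 share the CAL27 library, so a chance low or high CAL27 count moves both ratios the same way. Opposite moves past 2-fold, higher in CAL27/5FU and lower in CAL27/OXA, were seen for HLA-DRA, HLA-DRB1, HLA-DRB5, HLA-DPA1, HLA-DPB1 and HLA-DMB, which are 6 of the 10. Among all tested genes, 62 (0.453%) moved this way and 26 (0.19%) the other way round. Nothing is read from 6 of 10 beside these shares, because HLA-DRA's opposite moves helped to choose the set.

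**Figure D2:**
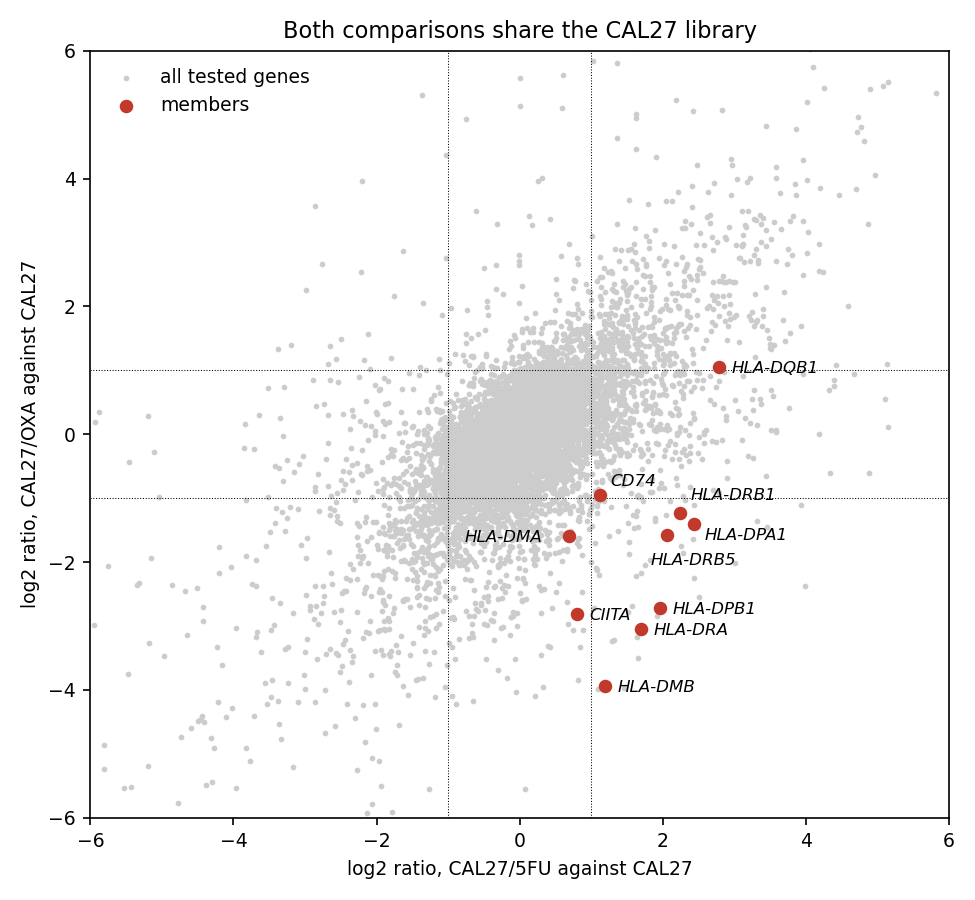
Log2 ratio to CAL27 in CAL27/5FU (horizontal) and in CAL27/OXA (vertical) for the 10 genes in red and all 13676 tested genes in grey, with dotted lines at 2-fold; 52 tested genes lie beyond the axes, which end at 6 log2 units. HLA-DQB1 is the only red point above the zero of the vertical axis, and 6 red points lie in the sector past 2-fold higher and past 2-fold lower.

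The DR β chains followed HLA-DRA with smaller differences in CAL27/OXA. HLA-DRB1 had 212, 1019 and 102 counts in CAL27, CAL27/5FU and CAL27/OXA, or 5.44, 26.0 and 2.30 CPM. It was 4.78-fold higher in CAL27/5FU (log2 ratio 2.25, interval 2.04 to 2.48) and 2.37-fold lower in CAL27/OXA (-1.23, interval -1.60 to -0.90). HLA-DRB5, a second DR β chain that only some haplotypes carry, had 114, 486 and 42 counts, and was 4.24-fold higher and 3.10-fold lower. The ratio of HLA-DRB1 to HLA-DRB5 in FPKM, which is per gene length, was 1.79, 2.02 and 2.34. These genes are near copies, and 2.42% of the 75-base windows of the HLA-DRB1 transcript also occur in HLA-DRB5, so a part of their reads cannot be assigned to either with certainty. HLA genes also vary between people, and how well reads of the alleles of CAL27 align to the reference was not tested.

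The DP chains showed the same order of libraries at lower counts. HLA-DPA1, the α chain, had 121, 666 and 51 counts, which is 3.11, 17.0 and 1.15 CPM. It was 5.48-fold higher in CAL27/5FU and 2.71-fold lower in CAL27/OXA than in CAL27. HLA-DPB1, the β chain, had 28, 115 and 3 counts. It was 4.09-fold higher in CAL27/5FU (log2 ratio 1.96, interval 1.43 to 2.68). Its 3 counts in CAL27/OXA leave the log2 ratio of -2.72 to CAL27 with a wide interval, from -5.77 to -1.72. HLA-DPA1 and HLA-DPB1 lie head to head on opposite strands of chromosome 6 and share 96 exonic bases, whose reads cannot be told apart if strand was not used in counting.

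HLA-DQB1, the β chain of DQ, was the exception. It had 18, 136 and 45 counts, or 0.462, 3.47 and 1.01 CPM, and so was lowest in CAL27 itself. It was 7.52-fold higher in CAL27/5FU, with a log2 ratio of 2.79 (interval 2.20 to 3.71), the highest of the 10. In CAL27/OXA it was 2.19-fold higher than in CAL27 (log2 ratio 1.06, interval 0.31 to 2.01), while its ratio to CAL27/5FU was -1.73 (interval -2.30 to -1.28). The call past 2-fold in CAL27/OXA was lost with a prior count of 5 and with FPKM and a pseudocount of 1. Its partner chain HLA-DQA1 had 12, 42 and 6 counts and log2 ratios of 1.65 and -0.96. In CAL27/OXA the interval of HLA-DQA1 was -2.89 to 0.34, which holds both signs and meets that of HLA-DQB1. Whether the 2 DQ chains were ordered alike there is not settled by these counts.

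The peptide-exchange factor DM differed between its chains. HLA-DMA had 472, 766 and 177 counts, with log2 ratios of 0.69 (interval 0.52 to 0.86) in CAL27/5FU and -1.59 (-1.86 to -1.35) in CAL27/OXA. It was thus under 2-fold higher in CAL27/5FU, at 1.62-fold, and 3.04-fold lower in CAL27/OXA. HLA-DMB had 108, 250 and 6 counts and was 2.30-fold higher in CAL27/5FU and 20.5-fold lower in CAL27/OXA. Its log2 ratio in CAL27/OXA, -3.94 (interval -5.84 to -3.19), was the lowest of the 10, and rests on 6 counts. In GENCODE 29 a read-through gene, AL645941.2, overlaps both DM genes on the same strand and holds 27.7% of the 75-base windows of HLA-DMB and 9.53% of those of HLA-DMA. Reads from these windows may be left uncounted, in every library alike.

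CD74 was by far the most abundant of the 10, with 9658, 21152 and 5724 counts, or 248, 540 and 129 CPM. It was 2.18-fold higher in CAL27/5FU (log2 ratio 1.12, interval 1.09 to 1.16). In CAL27/OXA it was 1.92-fold lower (-0.94, interval -0.99 to -0.90), just inside 2-fold. Its ratios were the least spread of the genes that were higher in one resistant line and lower in the other, since the 2 resistant lines differed by 4.19-fold in CD74 against 27.2-fold in HLA-DRA.

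CIITA had 422, 739 and 67 counts, or 10.8, 18.9 and 1.51 CPM. It was 1.74-fold higher in CAL27/5FU (log2 ratio 0.80, interval 0.63 to 0.98), below the 2-fold line in the main scaling and under each alternative (0.75 to 0.97). In CAL27/OXA it was 7.18-fold lower (-2.80, interval -3.24 to -2.47). The ratio between the resistant lines was 12.5-fold. In GENCODE 29, 2416 of the 20757 exonic bases of CIITA overlap DEXI on the opposite strand. DEXI had 772, 965 and 896 counts, a different order of libraries from CIITA.

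Set side by side, the order of sizes was not the same in the 2 comparisons. In CAL27/5FU the DR, DP and DQ chains among the members had log2 ratios of 1.69 to 2.79. HLA-DMB, CD74, CIITA and HLA-DMA were below them, at 1.19, 1.12, 0.80 and 0.69. In CAL27/OXA the lowest ratios were those of HLA-DMB, HLA-DRA, CIITA and HLA-DPB1, at -3.94, -3.04, -2.80 and -2.72. HLA-DMA, HLA-DRB5, HLA-DPA1 and HLA-DRB1 followed at -1.59, -1.58, -1.40 and -1.23. The place of HLA-DPB1 rests on 3 counts. Its interval, -5.77 to -1.72, holds the ratios of HLA-DMB, HLA-DRA and CIITA and meets the interval of HLA-DMA.

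Levels were compared between genes in FPKM, the deposited values per gene length and library total. In CAL27 the order was CD74 (155 FPKM), HLA-DRA (14.0), HLA-DMA (10.1), HLA-DRB1 (4.17), CIITA (2.48), HLA-DRB5 (2.33), HLA-DMB (1.85), HLA-DPA1 (1.69), HLA-DQB1 (0.261) and HLA-DPB1 (0.165). The neighbours from CIITA to HLA-DPA1, and HLA-DQB1 with HLA-DPB1, did not differ beyond their counting error. In CAL27/5FU CD74 reached 380 FPKM and HLA-DRA 51.2, and HLA-DRB1 (22.4) passed HLA-DMA (18.3). HLA-DRB5 (11.1) and HLA-DPA1 (10.4), and CIITA (4.87) and HLA-DMB (4.80), were not separable there. In CAL27/OXA CD74 stood at 88.3 FPKM and HLA-DMA, second, at 3.63. HLA-DRB1 and HLA-DRA followed at 1.93 and 1.83, within counting error of each other. HLA-DRB5, HLA-DPA1 and HLA-DQB1 lay between 0.825 and 0.627 with no separable neighbours, above CIITA (0.379), HLA-DMB (0.0988) and HLA-DPB1 (0.0170).

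Among the tested genes of its library, CD74 stood at the 97.1st percentile of FPKM in CAL27, the 99.0th in CAL27/5FU and the 93.6th in CAL27/OXA. HLA-DRA went from the 62.7th in CAL27 to the 88.0th in CAL27/5FU and the 23.7th in CAL27/OXA. CIITA, an mRNA of modest level in all 3 libraries, was at the 27.6th, 35.2nd and 10.8th. HLA-DPB1 was low throughout, at the 6.07th, 14.2nd and 0.541st.

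The summed FPKM of the presenting chains (DR, DP, HLA-DQA1 and HLA-DQB1) was 22.8, 98.9 and 6.0 in CAL27, CAL27/5FU and CAL27/OXA. DR made up 89.9%, 85.7% and 76.4% of it. DP held 8.12%, 11.3% and 11.7%, and DQ 1.96%, 2.97% and 11.9%. The DP shares also use the longer deposited length of HLA-DPB1. The larger share of DQ in CAL27/OXA came with a summed DQ level of 0.716 FPKM, against 0.447 in CAL27 and 2.94 in CAL27/5FU.

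**Figure D3:**
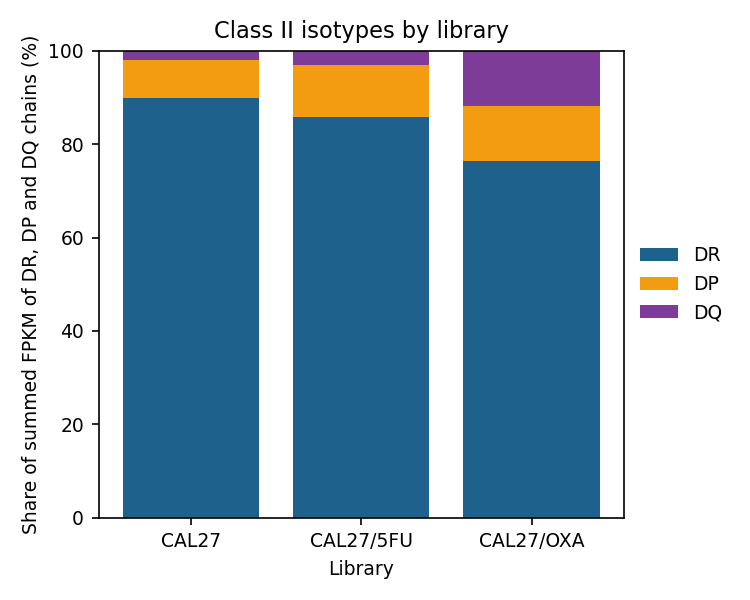
Share in percent of the summed FPKM of the DR, DP and DQ chains, stacked by isotype, 1 bar per library. DR holds 89.9%, 85.7% and 76.4% in CAL27, CAL27/5FU and CAL27/OXA, and DQ 11.9% in CAL27/OXA.

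The balance between partner chains shifted as well. HLA-DRA had 2.16 times the summed FPKM of the DR β chains HLA-DRB1 and HLA-DRB5 in CAL27, 1.52 times in CAL27/5FU and 0.666 times in CAL27/OXA, where it stood below them. HLA-DMA had 5.44, 3.81 and 36.7 times the FPKM of HLA-DMB, and HLA-DPA1 10.2, 13.7 and 40.2 times that of HLA-DPB1. The FPKM of HLA-DPB1 uses a gene length of 4056 bases, whereas its GENCODE 29 transcript has 1560. On the transcript lengths the DP ratio was 3.96, 5.30 and 15.6, and HLA-DPB1 stood above HLA-DQB1 in CAL27 (0.430 against 0.248 FPKM). The CAL27/OXA values of both pairs rest on the 6 and 3 counts of the β chains in CAL27/OXA. CD74 exceeded the presenting chains 6.79-fold in CAL27, 3.84-fold in CAL27/5FU and 14.7-fold in CAL27/OXA. Relative to CIITA, CD74 was at 62.4, 78.1 and 233 times its FPKM and HLA-DRA at 5.65, 10.5 and 4.84 times.

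Class II genes outside the 10 were few and low. Of 7 further class II genes, 5 were in the count table and 2 passed the filter. HLA-DQA1 is given above. HLA-DOB, a chain of DO, which inhibits DM, had 57, 113 and 158 counts and log2 ratios of 0.96 and 1.25, higher than CAL27 in both resistant lines and past 2-fold in both by total counts. HLA-DQA2 had 1, 5 and 0 counts, HLA-DQB2 had 1, 4 and 0, and HLA-DOA had 2, 7 and 0. These were too few to order CAL27 against either resistant library. For CAL27/OXA against CAL27/5FU the upper ends of their log2 intervals were -0.06, 0.42 and -0.71.

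The factors that bind class II promoters kept their levels within 2-fold. Of 7 genes, 0 passed 2-fold in either direction in any of the 3 comparisons, with medians of 0.03 in CAL27/5FU and 0.16 in CAL27/OXA. RFX5, the DNA-binding subunit of the RFX complex, had 1913, 2025 and 2605 counts (log2 ratios 0.08 and 0.26). RFXANK was at -0.58 and -0.15, and RFXAP, the third subunit, at 0.36 and 0.83. CREB1, which binds next to RFX, was at -0.22 and -0.01. The NF-Y subunits NFYA, NFYB and NFYC were between 0.03 and 0.06 in CAL27/5FU and between 0.12 and 0.32 in CAL27/OXA.

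Among 10 cofactors and chromatin regulators that have been tied to CIITA, KAT2B, an acetyltransferase, was the only gene past 2-fold. It had 260, 84 and 337 counts (-1.61 and 0.18), lower in CAL27/5FU, where class II was highest. The next in size, the deacetylases HDAC1 and HDAC2, were at -0.70 and 0.41 in CAL27/5FU and at -0.27 and 0.38 in CAL27/OXA. Of 5 lineage regulators of CIITA, SPI1, IRF4, IRF8 and PAX5 had 0 to 4 counts in every library. PRDM1, a repressor of CIITA in plasma cells, had 509, 240 and 316 counts, log2 ratios of -1.09 and -0.87, and so was lower in both resistant lines.

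Interferon-γ is the usual inducer of CIITA in epithelial cells, and IFNG itself had 0 counts in all 3 libraries, where a count of 0 allows up to 3. Among genes on the interferon-γ route to CIITA was JAK2, a kinase that associates with the receptor. JAK2 had log2 ratios of 0.78 in CAL27/5FU and 0.83 in CAL27/OXA, above 0 in both resistant lines. IRF1, which acts at CIITA, was at -0.26 and -0.22. The receptor chains IFNGR1 (-0.30 and -0.45) and IFNGR2 (-0.38 and -0.35), the kinase JAK1 (0.23 and -0.08), IRF2 (-0.27 and -0.09), USF1 (-0.02 and -0.14) and the inhibitor SOCS1 (-0.24 and -0.13) were all within 2-fold. JAK2 and IRF1 were inside 2-fold as well, in both resistant lines. These are transcript levels, and whether the activity of the route differed between the lines was not tested.

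The medians of other interferon-γ targets had the same signs as those of the class II genes and were closer to the parental level. Of 9 tested, 3 were more than 2-fold higher in CAL27/5FU and 0 lower (median 0.83). In CAL27/OXA 1 was more than 2-fold lower and 0 higher (median -0.83), and 6 were more than 2-fold lower in CAL27/OXA than in CAL27/5FU (median -1.45). GBP5, a guanylate-binding protein, had 68, 417 and 78 counts (2.58 and 0.01), and IDO1, which degrades tryptophan, 91, 358 and 57 (1.95 and -0.84). CXCL11, a T cell chemokine, had 612, 2171 and 374 counts (1.82 and -0.90). The gene past 2-fold lower in CAL27/OXA was CXCL10, with 723, 1149 and 236 counts (0.66 and -1.80). NLRC5, the counterpart of CIITA for class I genes, had 1517, 2717 and 2838 counts (0.83 and 0.71). NLRC5 and CIITA thus had similar ratios in CAL27/5FU and ratios of unlike sign in CAL27/OXA.

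Class I presentation genes, many of which NLRC5 serves, were mostly within 2-fold. Of 11, HLA-F was past 2-fold, in CAL27/5FU (1.06 and 0.81), and 0 passed in CAL27/OXA, where TAPBP, which loads peptides on class I, was lowest (-0.42 and -0.66). HLA-B had log2 ratios of 0.92 (past 2-fold by total counts) and 0.83, and TAP1, the peptide transporter, 0.67 and 0.02, and the medians of the list were 0.38 and 0.25. Both resistant libraries thus had class I medians above 0, whereas the class II medians were 1.83 and -1.59.

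**Figure D4:**
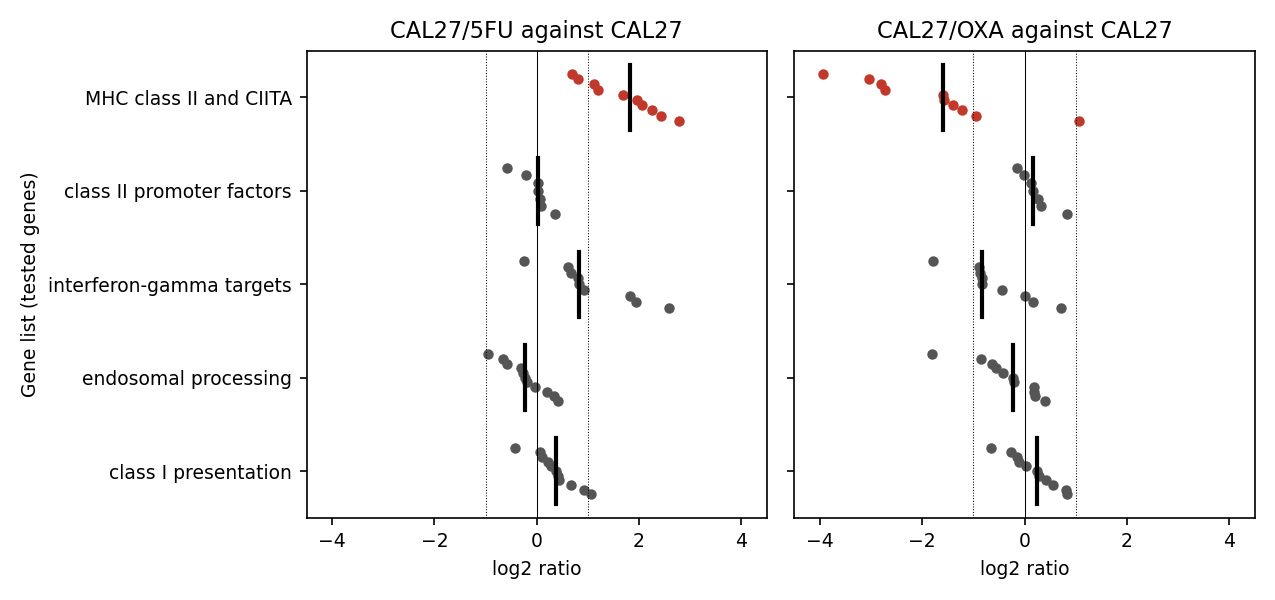
Log2 ratios to CAL27 in CAL27/5FU (left) and CAL27/OXA (right), 1 point per tested gene, by gene list, with the list's median as a bar and dotted lines at 2-fold. The class II genes spread from 0.69 to 2.79 on the left and from -3.94 to 1.06 on the right, while the promoter factors stay within 2-fold on both sides.

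Endosomal processing genes, which cut antigens and CD74 or recycle class II, were mostly within 2-fold. Of 11, 0 passed in CAL27/5FU and 1 was lower in CAL27/OXA, with medians of -0.22 in each. CTSD, an aspartic protease, had 48716, 25121 and 15798 counts (-0.96 and -1.81). CTSB was at -0.30 and -0.85 and CTSF at -0.66 and 0.19. Of the 8 tested costimulation and adhesion genes, which work beside class II on presenting cells, 2 were higher and 1 lower past 2-fold in each resistant line. PDCD1LG2 had 65, 277 and 496 counts (2.05 and 2.71) and CD274 466, 1016 and 1347 (1.11 and 1.34), and both encode ligands of the inhibitory receptor PD-1. ICOSLG, a costimulatory ligand, had 390, 151 and 163 counts (-1.36 and -1.44). These 3 moved in the same direction in both resistant lines, unlike HLA-DRA. CD80 had 0, 0 and 6 counts and CD86 46, 29 and 36.

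Blood cell markers were read to check the labelled cell type, since professional presenting cells carry class II. Of 19 markers, 7 were at 0 in all 3 libraries, among them MS4A1 of B cells, CD1C and CLEC9A of dendritic cells, and TYROBP and AIF1 of myeloid cells. PTPRC, which all white blood cells express, had 2, 0 and 0 counts. Other markers of the list were detected in every library, among them LAPTM5 (327, 348 and 401 counts) and CSF1R (236, 179 and 199). The summed FPKM of the list was 16.2 in parental cells, 28.0 in CAL27/5FU cells and 10.9 in CAL27/OXA cells. That order of libraries came from CD14 alone, since the other markers summed to 6.66, 6.21 and 6.0. CD14, a monocyte marker, moved with class II, at 637, 1290 and 341 counts (1.01 and -1.09). Without TMM scaling, by total counts, its ratio in CAL27/OXA was inside 2-fold. ITGAM had 176, 27 and 38 counts and ITGAX 93, 27 and 55, lower in both resistant lines. The part of CD14-expressing cells in the class II values was not tested, and fewer cells with class II and less class II RNA per cell cannot be told apart in bulk RNA.

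Epithelial identity also differed between the libraries. All 14 squamous epithelial markers were detected in each library, with a summed FPKM of 7981, 2289 and 3580 in CAL27, CAL27/5FU and CAL27/OXA. Of these, 12 were more than 2-fold lower in CAL27/5FU and 9 in CAL27/OXA, led by the keratins KRT14 (58222, 948 and 8423 counts) and KRT16 (8146, 411 and 343) and the plaque protein PKP1 (10588, 507 and 267). EPCAM and CDH1 were within 2-fold in both. Among 8 endothelial and fibroblast markers, of which 6 were tested, 2 were higher in each resistant line, CDH5 (43, 338 and 163 counts) and COL1A2 (90, 300 and 212), and VWF (44, 19 and 29) was lower in CAL27/5FU. The part of these differences in the class II values was not tested.

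On chromosome 6 (GENCODE 29, GRCh38) the 8 HLA genes span 32439842 to 33087201, from HLA-DRA on the plus strand (32439842 to 32445046) to HLA-DPB1. CD74 lies on chromosome 5 (150401637 to 150412929, minus strand) and CIITA on chromosome 16 (10866222 to 10943021, plus strand). The tested genes that lie among the HLA genes and are not class II are TAP2, PSMB8, PSMB9 and TAP1, which serve class I presentation, and BRD2. Of these 5, 0 passed 2-fold in any of the 3 comparisons, with ratios of -0.12 to 0.67 in CAL27/5FU and -0.16 to 0.29 in CAL27/OXA. HLA-DMB and HLA-DMA, at -3.94 and -1.59 in CAL27/OXA, lie between TAP1 (0.02) and BRD2 (-0.16). BRD2 shares 55 exonic bases with HLA-DMA on the opposite strand and had 13121, 12108 and 13566 counts.

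Of the 5 nearest tested genes on either side of the cluster, 1 of 10 passed 2-fold in each resistant line. GPSM3 had 52, 165 and 81 counts (1.62 and 0.44), and NOTCH4 had 34, 61 and 276 (0.80 and 2.76). Neither was lower in CAL27/OXA. A difference over the whole of this stretch of chromosome was not seen in these genes, and the number of copies of the region was not measured.

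**Figure D5:**
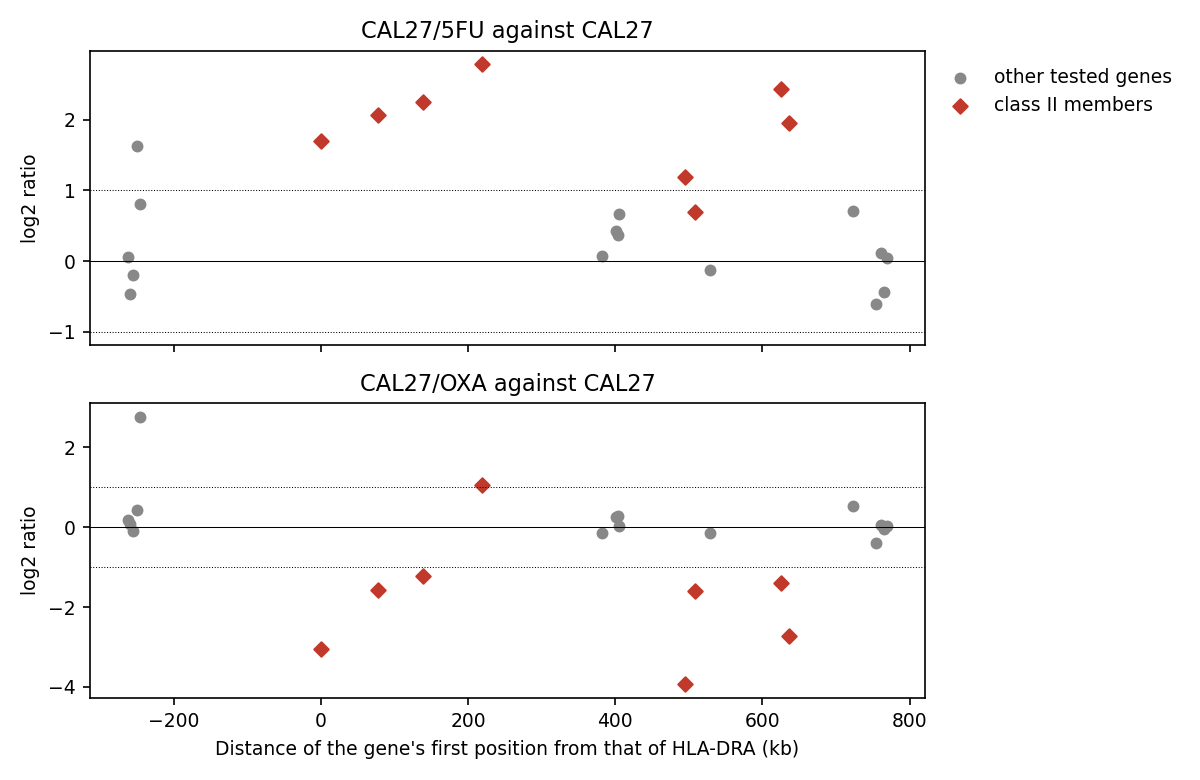
Log2 ratio to CAL27 in CAL27/5FU (top) and CAL27/OXA (bottom) by the distance in kilobases of a gene's first position from that of HLA-DRA, for the 8 HLA genes (red diamonds) and 15 other tested genes among or beside them (grey circles), with dotted lines at 2-fold. The 5 grey genes inside the cluster stay within 2-fold, next to HLA-DMB at -3.94 in the lower panel.

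The genes with a pattern most like HLA-DRA were sought among 11540 genes whose mean count reached 100, by the distance between their 2 log2 ratios and those of HLA-DRA over the 3 libraries. The nearest were KLHDC7B at a distance of 0.30 (100, 386 and 14 counts), AMDHD1 at 0.32 (180, 519 and 28) and GJD3 at 0.46 (99, 319 and 8). CLEC7A, a receptor for fungal β-glucan, followed at 0.81 (117, 219 and 14 counts) and CYP4X1 at 0.86 (86, 284 and 20). CIITA was the 7th nearest gene at 0.93 and HLA-DMB the 10th at 1.03. HLA-DRB5 was 21st, HLA-DMA 38th, HLA-DPA1 44th, HLA-DRB1 57th and CD74 106th. HLA-DQB1 and HLA-DPB1, with mean counts of 66.3 and 48.7, were below the minimum of 100 and were not ranked. HLA-DQB1 was higher than CAL27 in both resistant lines, unlike HLA-DRA. These distances rest on 3 libraries and include the shared CAL27 library. The 5 nearest genes had 8 to 28 counts in CAL27/OXA. Under alternative processing the log2 ratio of GJD3 to CAL27 there ranged from -3.73 to -0.60. Because HLA-DRA's opposite moves helped to choose the set, nothing is read from the ranks of its members.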

How the data were processed

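RNA-seq of 3 libraries was used. Per the labels and the study's methods, TRIzol RNA and the NEBNext Ultra kit were used with Illumina sequencing. The submitters' processing notes name CASAVA 1.8, HISAT2 2.0.5 and GRCh38; the counting tool, annotation and strandedness are not given in the sources used here. The deposited count table holds raw read counts per gene symbol for 19220 genes. The deposited FPKM table (19225 genes) holds values that the authors scaled by total counts and gene length. Each table has 3 more columns of per-sample values, named as second samples of these lines, which match no sample label and were not used, so the limit to 1 library per line is one of the columns used here. Columns of sample values were matched to labels by name.

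Counts were scaled with TMM (edgeR 4.0.16, R 4.3.3) and log2 ratios used a prior count of 2, while folds are plain ratios of CPM. Genes whose mean count reached 10 (13676) were tested, meaning counted as past 2-fold or not. The study also required a DESeq2 p-value, which the 1 library per line used here cannot give, so no test was run. Intervals of ratios are exact Clopper-Pearson and those of levels exact Poisson, at 95%, for counting error only. Library totals were 37297713 to 43455488.

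The members and lists were chosen with earlier results of these data known. Named were all 10 members, every gene of the lists of other class II genes, promoter factors and the interferon-γ route (of which 1 result is not reported here), the 3 genes of each other list with the largest ratio in either resistant line, and the 5 genes most like HLA-DRA. Genes named beside these were chosen after their values were seen. They were overlapping or neighbouring genes, zero-count markers, NLRC5, CXCL10, TAPBP, CD80, CD86, PTPRC, LAPTM5, CSF1R, EPCAM and CDH1. Alternatives were DESeq2 1.42.0 size factors, total counts, upper quartile factors, filters of 1 count in any library or a mean of 50, prior counts of 0.5 and 5, and FPKM with pseudocounts of 1 and 0.1.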

Additional observations from a re-analysis of the deposited data

Results flagged for a closer look

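The 2 resistant libraries differed from the CAL27 library with opposite signs past 2-fold for 6 of the 10 genes. There was 1 library per line, and the difference was not tested. HLA-DRA's opposite moves helped to choose the set, so nothing is read from this number. The log2 ratios to CAL27 in CAL27/5FU and CAL27/OXA were 1.69 and -3.04 for HLA-DRA, 2.25 and -1.23 for HLA-DRB1, and 2.07 and -1.58 for HLA-DRB5. For the DP chains they were 2.44 and -1.40 for HLA-DPA1 and 1.96 and -2.72 for HLA-DPB1. HLA-DMB had 1.19 and -3.94.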

How the results depend on the processing

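Of 267 values of the 10 genes under alternatives, 258 kept their direction and their side of 2-fold, 9 kept the direction and came under 2-fold, and 0 reversed. With FPKM and a pseudocount of 1, which pulls low genes towards 0, 0 of the 10 were more than 2-fold higher and 4 lower in CAL27/OXA against CAL27, with a median of -0.84. With a prior count of 5, 0 were more than 2-fold higher, as HLA-DQB1 came to 0.96. Over all tested genes, higher and lower calls were 1899 and 1555 (CAL27/5FU), 1348 and 1925 (CAL27/OXA) and 981 and 1861 (CAL27/OXA against CAL27/5FU) with the filter of 1 count in any library, which tests more genes. With FPKM and a pseudocount of 1 they were 503 and 311, 368 and 481, and 165 and 437. With the filter of a mean of 50 counts, 760 were higher in CAL27/5FU and 369 higher in CAL27/OXA against CAL27/5FU. Total counts moved the median of all tested genes to 0.17 for CAL27/5FU and 0.14 for CAL27/OXA, each against CAL27. The share of higher among called genes in CAL27/5FU was then 67.2%, and 65.6% with FPKM and a pseudocount of 0.1, against 55.7% with TMM. Of 1290 values of other named genes, 1231 kept their direction and call, 28 came under 2-fold, 11 passed it and 20 changed sign within 2-fold. No replicate was left out, and no paired analysis was possible because 1 library per group was used. Depth limits HLA-DPB1 and HLA-DMB most, with 3 and 6 counts in CAL27/OXA.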
